A study of Mus musculus with 6 samples.

Results

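Immediate early genes are transcribed within minutes of a stimulus from factors that are already present in the cell. The 10 genes described here, *Fos*, *Fosb*, *Jun*, *Junb*, *Jund*, *Egr1*, *Egr2*, *Ier2*, *Ier3* and *Btg2*, were taken by their GENCODE M21 symbols from the 49315 Ensembl genes counted in liver macrophages, as a set that answers both to activation and to cell isolation. Each symbol matched 1 Ensembl gene, and the expression filter kept all 10. The cells were F4/80-positive cells of mouse liver, which are mostly Kupffer cells, the macrophages that live in the liver sinusoids, freed by collagenase perfusion and pulled down with anti-F4/80 magnetic beads. They came from 3 WT mice (*Lpcat3* fl/fl, *LysM* +/+) and 3 Lpcat3KOMac mice (*Lpcat3* fl/fl, *LysM* Cre/+), littermates on a C57BL/6N background, with 1 RNA library per mouse. *Lpcat3* encodes an acyltransferase that places arachidonic acid into membrane phospholipids. Both genotypes carry the floxed *Lpcat3* alleles and both received a high-fat diet (60% fat) for 16 weeks, begun in young adults. Cre is made from the *LysM* (*Lyz2*) locus, so deletion is aimed at all myeloid cells and not at Kupffer cells alone. No library of cells spared from perfusion and sorting was analysed here, so transcripts present in the living liver and transcripts made during the isolation cannot be told apart.

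FOS and FOSB pair with JUN, JUNB or JUND to form AP-1, a dimeric transcription factor, whereas EGR1 and EGR2 are zinc-finger factors that bind GC-rich sites. Their genes are switched on by MAP kinase signalling through serum response factor, which binds the CArG box, and by CREB, which binds the cAMP response element. Transcripts of this class are short-lived, and in tissue macrophages they are known to rise upon enzymatic dissociation as well as upon inflammatory stimuli. Both *Ier2* and *Ier3* are early response genes, the latter linked to cell survival, and BTG2 is an antiproliferative protein that promotes removal of the poly-A tail.

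Promoter sequences from RefSeq (GRCm38.p6, 250 bases before to 50 after each start site) were matched for 8 of the 10 genes, with 12 start sites in all, 5 of them of *Egr2*. *Egr1* and *Ier2* were not matched. Both strands were searched for the CArG box, for the cAMP response element TGACGTCA and its shorter form TGACGT, for the AP-1 site TGANTCA, for the EGR site GCGNGGGCG and for the STAT site TTCNNNGAA. The short form lies within the full element, so a full match holds 2 short ones. Among all 32851 listed promoters, these letters occurred in 1.63% (CArG), 1.79% (full cAMP response element), 7.51% (short form), 7.81% (AP-1), 5.55% (EGR) and 8.3% (STAT). Of the 8 genes, *Fos*, *Fosb*, *Egr2* and *Btg2* held at least 1 match, and *Jun*, *Junb*, *Jund* and *Ier3* held none in this window. Sites outside it were not searched, so the lack of a match, such as a CArG box for *Fos*, holds for this window only. The CArG box stood before 4 of the 5 *Egr2* start sites, but for 3 of them, which lie close together, it was the same box. The 180 bases that precede the start are shown for those 4 genes because they hold every match of *Fos*, *Fosb* and *Btg2* and, for *Egr2*, the first of 3 start sites that held both a CArG box and a short cAMP response element. Capitals mark the matched letters, with the sequence read 5′ to 3′ on the gene's own strand.
Fos: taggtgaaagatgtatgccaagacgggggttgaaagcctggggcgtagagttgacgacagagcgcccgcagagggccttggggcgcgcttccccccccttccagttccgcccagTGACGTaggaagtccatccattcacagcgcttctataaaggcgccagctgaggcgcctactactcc
Fosb: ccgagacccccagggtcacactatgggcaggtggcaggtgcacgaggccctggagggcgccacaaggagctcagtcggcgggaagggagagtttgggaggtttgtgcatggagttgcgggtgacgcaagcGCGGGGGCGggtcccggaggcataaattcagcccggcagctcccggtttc
Egr2: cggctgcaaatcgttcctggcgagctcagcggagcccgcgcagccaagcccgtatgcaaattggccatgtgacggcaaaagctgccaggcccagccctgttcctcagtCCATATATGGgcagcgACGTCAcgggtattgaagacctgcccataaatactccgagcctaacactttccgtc
Btg2: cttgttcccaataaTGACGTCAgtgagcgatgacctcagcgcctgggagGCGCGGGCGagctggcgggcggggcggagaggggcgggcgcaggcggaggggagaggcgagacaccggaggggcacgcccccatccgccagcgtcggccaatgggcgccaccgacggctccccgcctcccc
The *Fos* stretch is chr12:85473710-85473889 (plus strand), and its TGACGT lies 66 to 61 bases before the start. The *Fosb* stretch is chr7:19310046-19310225 (minus strand), with an EGR match at 50 to 42 bases, and 6 of its bases fall in a first exon of GENCODE. The *Egr2* stretch is chr10:67537689-67537868 (plus strand), within the span of the gene but in no GENCODE exon, with the CArG box at 72 to 63 bases and the short cAMP response element, on the other strand, at 56 to 51 bases. The *Btg2* stretch is chr1:134079156-134079335 (minus strand), with the full cAMP response element at 166 to 159 bases and an EGR match at 131 to 123 bases. These are matches of letters, and binding was not measured.

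The libraries held 44954224 to 71392812 counts. Levels are given in CPM, the counts of a gene relative to the library total scaled by the TMM method, with 1 CPM standing for 45.7 to 65.0 counts. *Lpcat3* was at 61.2 to 85.0 CPM in WT mice and at 19.4 to 33.3 CPM in Lpcat3KOMac mice, so the targeted gene followed the labels while its transcript was still present. Summed Kupffer cell markers reached 24940 to 34010 CPM in WT and 18860 to 27220 CPM in Lpcat3KOMac mice. The labelled cell type thus had its markers in each library. That sum was mostly *Clec4f* and *Cd5l*, and Lpcat3KOMac mouse 2 was the lowest library for every marker of the list. *Marco* was at 1076, 3168 and 999 CPM in WT and at 1353, 148.5 and 2855 CPM in Lpcat3KOMac mice 1 to 3. *Timd4* was at 428, 938 and 344 CPM and at 478, 123 and 645 CPM in the same order. Transcripts of 5 hepatocyte genes (*Alb*, *Apoa1*, *Ttr*, *Serpina1c* and *Fabp1*) were unequal between libraries, with 18800, 1718 and 1666 CPM in WT mice 1, 2 and 3 and 4312, 12150 and 4226 CPM in Lpcat3KOMac mice 1, 2 and 3. WT mouse 1 and Lpcat3KOMac mouse 2 therefore stood apart from the other 4, and values without them are given where they matter. Defining neutrophil transcripts summed to at most 7.77 CPM and T and NK cell transcripts to at most 2.56 CPM, whereas sinusoidal endothelial (673 to 1048 CPM), monocyte (74.0 to 142 CPM), stellate (69.8 to 226 CPM) and B cell transcripts (14.9 to 26.9 CPM) were present in both genotypes. Markers of several of these types were not equal between genotypes, although edgeR's quasi-likelihood test called 0 of them. Endothelial markers were higher in Lpcat3KOMac mice for 5 of 5 genes (median log2 fold change 0.77), with an unadjusted p of 0.0287 for *Kdr* and 0.0277 for *Ptprb*, and stellate markers for 5 of 5 (median 0.36). Neutrophil sums lay at 3.14 to 5.01 CPM in WT and at 6.22 to 7.77 CPM in Lpcat3KOMac mice, and Kupffer cell markers were lower for 6 of 6 genes (median -0.25). The part of these cell types in the genotype differences given here was not tested.

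*Fos* and *Fosb*, which supply the FOS-type partner of AP-1, varied more between mice of one genotype than between the genotypes. *Fos* (ENSMUSG00000021250, chr12:85473890-85477273, plus strand) was counted at 76.1, 207 and 116 CPM in WT mice 1, 2 and 3, against 184, 94.1 and 95.9 CPM in Lpcat3KOMac mice 1, 2 and 3. The highest library was a WT and the next an Lpcat3KOMac, the lowest was again a WT, and the genotypes overlapped over nearly the whole range. Group means were 133 ± 67.1 CPM (SD, n = 3) for WT and 125 ± 51.2 CPM (SD, n = 3) for Lpcat3KOMac, a log2 fold change of -0.09 (SE 0.45). The 95% interval of that change, 0.430-fold to 2.05-fold, leaves room for a large difference either way. In a bulk library a gene carried by fewer cells and a gene with less RNA per cell cannot be told apart, and this holds for each level given here. *Fosb* (ENSMUSG00000003545, chr7:19302696-19310051, minus strand) was scarcer, at 4.25, 22 and 6.69 CPM in the WT libraries and 23.2, 7.18 and 11.3 CPM in the Lpcat3KOMac libraries. Its 2 highest libraries, WT mouse 2 and Lpcat3KOMac mouse 1, were those of *Fos* in the opposite order. The log2 fold change of *Fosb* was 0.34 (SE 0.75), with an interval of -1.53 to 2.21, the widest among the 10 genes.

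**Figure D1:**
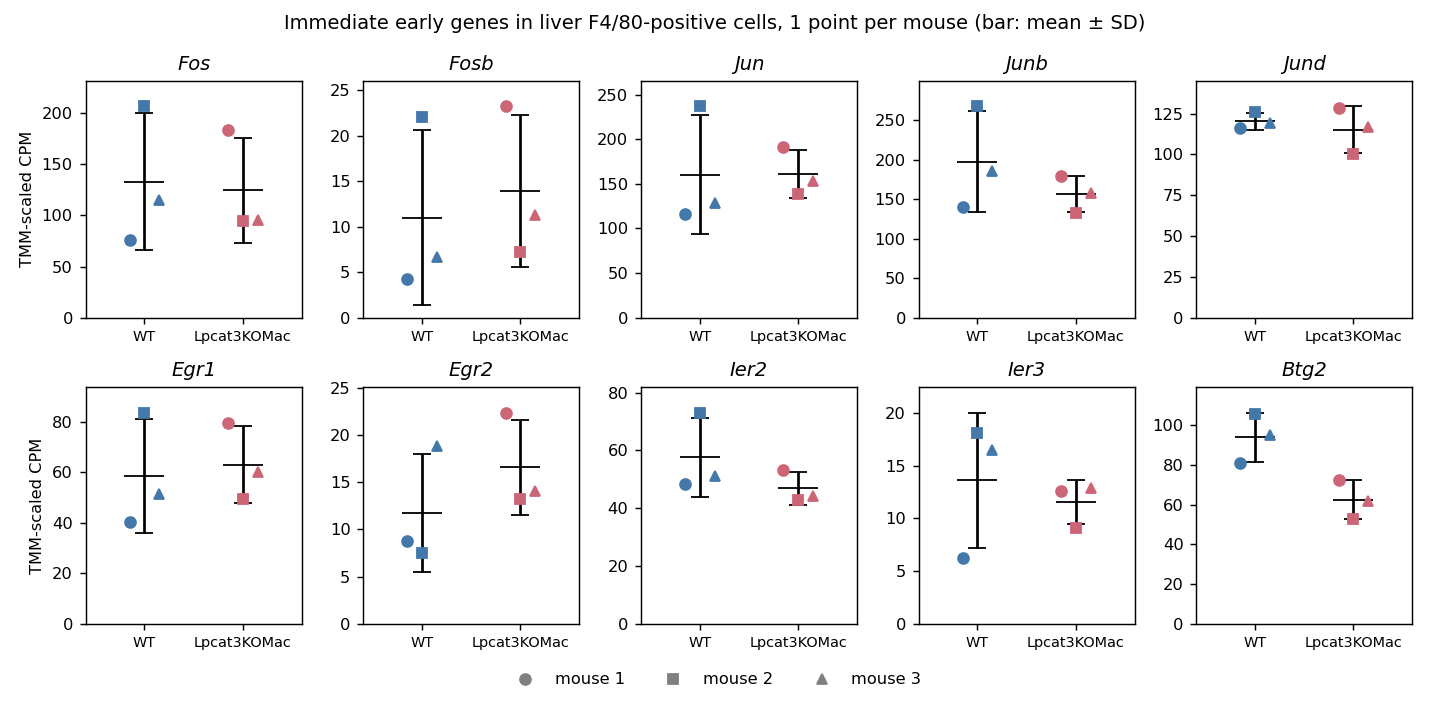
Level of each immediate early gene in CPM (linear axis from 0, TMM-scaled), with 1 point per mouse for the 3 WT and the 3 Lpcat3KOMac libraries and the mean and SD drawn beside the points. The genotypes overlap in 9 panels, and in the *Btg2* panel the Lpcat3KOMac points (52.8 to 72.5 CPM) all lie under the WT points (81.2 to 106 CPM).

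The JUN family, which supplies the partner of FOS in AP-1, held both a gene with a steady level and genes that followed *Fos*. *Jun* (ENSMUSG00000052684, chr4:95049034-95052222, minus strand, 1 exon) was at 116, 237 and 128 CPM in WT mice and 192, 139 and 153 CPM in Lpcat3KOMac mice. Both means came to 161 CPM, with an SD of 66.7 in WT and 27.3 in Lpcat3KOMac (n = 3 each). Its log2 fold change was 0.01 (SE 0.31, interval -0.75 to 0.76). *Junb* (ENSMUSG00000052837, chr8:84974484-84978718, minus strand) was at 140, 267 and 185 CPM in WT and at 179, 133 and 157 CPM in Lpcat3KOMac libraries. WT mouse 2 was well above the other 5, which lay between 133 and 185 CPM with the genotypes intermixed, and the log2 fold change was -0.34 (SE 0.26, interval -0.97 to 0.29). *Jund* (ENSMUSG00000071076, chr8:70698949-70700616, plus strand, 1 exon), the JUN gene known for high basal expression, stayed between 99.9 and 129 CPM in the 6 libraries. WT values were 116, 126 and 119 CPM and Lpcat3KOMac values 129, 99.9 and 117 CPM, so that both extremes belonged to Lpcat3KOMac mice. *Jund* gave the narrowest interval of the 10 genes, 0.790-fold to 1.16-fold around a log2 fold change of -0.06 (SE 0.11).

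The JUN-type levels carry a limit of counting, because the strand setting used by the authors is not given in the sources used here. *Junb* shares 351 bases, 173 of them exonic, with *Prdx2* on the other strand, and *Prdx2* had up to 113% of the *Junb* counts in a library. *Prdx2* itself gave a log2 fold change of -0.18 (SE 0.09). The antisense gene *Junos* overlaps 232 exonic bases of *Jun* but held at most 38 counts, or 0.631% of those of *Jun*. *Gm11175* overlaps 877 exonic bases of *Jund* and had 0 counts in every library.

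EGR1 and EGR2 bind the same GC-rich letters, yet the levels of their genes ran apart in WT mouse 2. *Egr1* (ENSMUSG00000038418, chr18:34859823-34864984, plus strand) reached 40.2, 83.7 and 51.6 CPM in the WT and 79.6, 49.4 and 60.3 CPM in the Lpcat3KOMac libraries, which is the order of *Fos* at its top and bottom. The log2 fold change of *Egr1* was 0.11 (SE 0.32, interval -0.68 to 0.89). *Egr2* (ENSMUSG00000037868, chr10:67535475-67542188, plus strand) reached only 8.77, 7.51 and 18.9 CPM in the WT and 22.4, 13.3 and 14.0 CPM in Lpcat3KOMac mice. WT mouse 2, the highest library for *Egr1*, was the lowest for *Egr2*, and 2 of the 3 WT libraries lay under all Lpcat3KOMac libraries while WT mouse 3 lay among them. Its log2 fold change was 0.50 (SE 0.42, interval -0.53 to 1.53), and without WT mouse 3 it came to 1.02 (unadjusted p = 0.0178, edgeR's quasi-likelihood test with a Benjamini-Hochberg adjusted p of 0.996). Without WT mouse 2 it came to 0.26, as it did without Lpcat3KOMac mouse 1. Per transcript length, *Egr1* exceeded *Egr2* 8.45-fold in WT mouse 2 but 2.08-fold in WT mouse 3. The other 4 libraries had ratios from 2.70 to 3.47, and both extremes of the ratio were in WT mice.

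*Ier2*, *Ier3* and *Btg2* do not belong to the AP-1 or EGR families. *Ier2* (ENSMUSG00000053560, chr8:84661331-84662852, minus strand, 1 exon) was at 48.4, 73.1 and 51.1 CPM in WT and 53.4, 42.9 and 44.2 CPM in Lpcat3KOMac mice. WT mouse 2 was again the highest, the other WT libraries lay within the Lpcat3KOMac range, and the log2 fold change was -0.30 (SE 0.19, interval -0.76 to 0.17). *Ier3* (ENSMUSG00000003541, chr17:35821684-35822923, plus strand) had 6.25, 18.1 and 16.5 CPM in the WT and 12.6, 9.12 and 12.9 CPM in Lpcat3KOMac mice, with a log2 fold change of -0.24 (SE 0.41, interval -1.26 to 0.78). Its lowest libraries were WT mouse 1 and Lpcat3KOMac mouse 2, those richest in hepatocyte transcripts, and over the 6 libraries its correlation with the hepatocyte score (the mean log2 CPM of those 5 genes) was -0.98. The same correlation ranged from -0.27 (*Egr2*) to -0.76 (*Junb*) for the other 9 genes. Without the 2 hepatocyte-rich libraries the *Ier3* log2 fold change was -0.44 (unadjusted p = 0.0154, adjusted p = 0.261 by edgeR's quasi-likelihood test and the Benjamini-Hochberg method). With the hepatocyte score as a covariate it turned to 0.12, with a length offset added to 0.25, and without WT mouse 2 to 0.018, so the direction of *Ier3* was not stable.

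*Btg2* (ENSMUSG00000020423, chr1:134075170-134079120, minus strand) was the 1 gene of the 10 whose genotypes did not overlap. WT mice 1, 2 and 3 had 81.2, 106 and 95.1 CPM, and Lpcat3KOMac mice 1, 2 and 3 had 72.5, 52.8 and 61.9 CPM. Every Lpcat3KOMac library was thus below every WT library, as was the case for 5.2% of the 16134 genes tested, whereas 2.29% had every Lpcat3KOMac library above. The WT mean of *Btg2* was 94.0 ± 12.3 CPM (SD, n = 3), and the Lpcat3KOMac mean was 62.4 ± 9.84 CPM (SD, n = 3). The log2 fold change was -0.59 (SE 0.16), or 0.664-fold with an interval of 0.508-fold to 0.867-fold. Its unadjusted p was 0.0097 and its Benjamini-Hochberg adjusted p in edgeR's quasi-likelihood test was 1.00, so the difference did not pass the threshold of 0.05. The exact permutation test (two-sided) gave p = 0.1, the smallest that 3 mice against 3 allow. Without WT mouse 1 and Lpcat3KOMac mouse 2 the log2 fold change was -0.58 (adjusted p = 0.149 by the same method).

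No gene of the 10 passed the genotype test. EdgeR's quasi-likelihood test called 0 of the 10 at an adjusted p under 0.05, against 0% of the 16134 genes tested, while DESeq2 called 12 genes overall and 0 of the 10, and limma-voom 0 of the 10. EdgeR's quasi-likelihood test did not call the targeted *Lpcat3* either (log2 fold change -1.56, unadjusted p = 0.0012, adjusted p = 0.9999). The paper counts *Lpcat3* and *Lyz2* among the few genes it found to differ. An absence of calls therefore does not show that the 10 genes were unchanged. At an unadjusted p under 0.05 there was 1 of the 10 (*Btg2*), with a background of 2.64% of the genes tested. Of the 10 log2 fold changes 6 were below 0, beside 59.9% of all genes, and their median was -0.08, beside -0.04 over all genes. That median turned to 0.14 without WT mouse 2, to 0.07 without Lpcat3KOMac mouse 2 and to 0.01 without Lpcat3KOMac mouse 3. Directions of *Btg2*, *Junb*, *Ier2* and *Egr2* held in each of 18 alternative analyses, whereas those of the other 6 genes reversed in at least 1. Without WT mouse 2, however, *Junb* came to -0.056 and *Ier2* to -0.088. Libraries in each group came from separate mice, so the SD is between animals.

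**Figure D2:**
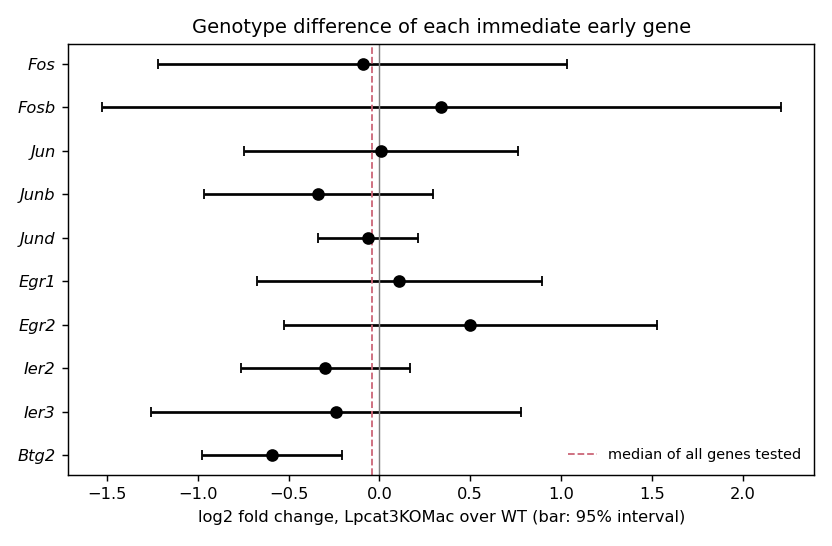
Log2 fold change of Lpcat3KOMac over WT for each immediate early gene (horizontal axis, 0 meaning no difference), with bars for the 95% interval from edgeR's quasi-likelihood fit of 3 against 3 libraries and a dashed line at the median of all genes tested (-0.04). The bars of 9 genes cross 0, and that of *Btg2* runs from -0.98 to -0.21.

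The larger differences among these genes were between mice and cut across genotype. The mean log2 CPM of the 10 genes was 5.23, 6.15 and 5.73 in WT mice 1, 2 and 3 and 6.05, 5.39 and 5.64 in Lpcat3KOMac mice 1, 2 and 3. Highest and lowest were thus both WT libraries, 0.92 apart on the log2 scale, or 1.9-fold. WT mouse 2 was the highest library for 7 of the 10 genes and Lpcat3KOMac mouse 1 for the other 3 (*Fosb*, *Jund* and *Egr2*). The lowest library was WT mouse 1 for 5 genes (*Fos*, *Fosb*, *Jun*, *Egr1* and *Ier3*), Lpcat3KOMac mouse 2 for 4 (*Junb*, *Jund*, *Ier2* and *Btg2*) and WT mouse 2 for *Egr2*. Scaling by total counts alone put Lpcat3KOMac mouse 1 on top in place of WT mouse 2. Without the hepatocyte-rich WT mouse 1 and Lpcat3KOMac mouse 2 the spread of the mean was 0.51.

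**Figure D3:**
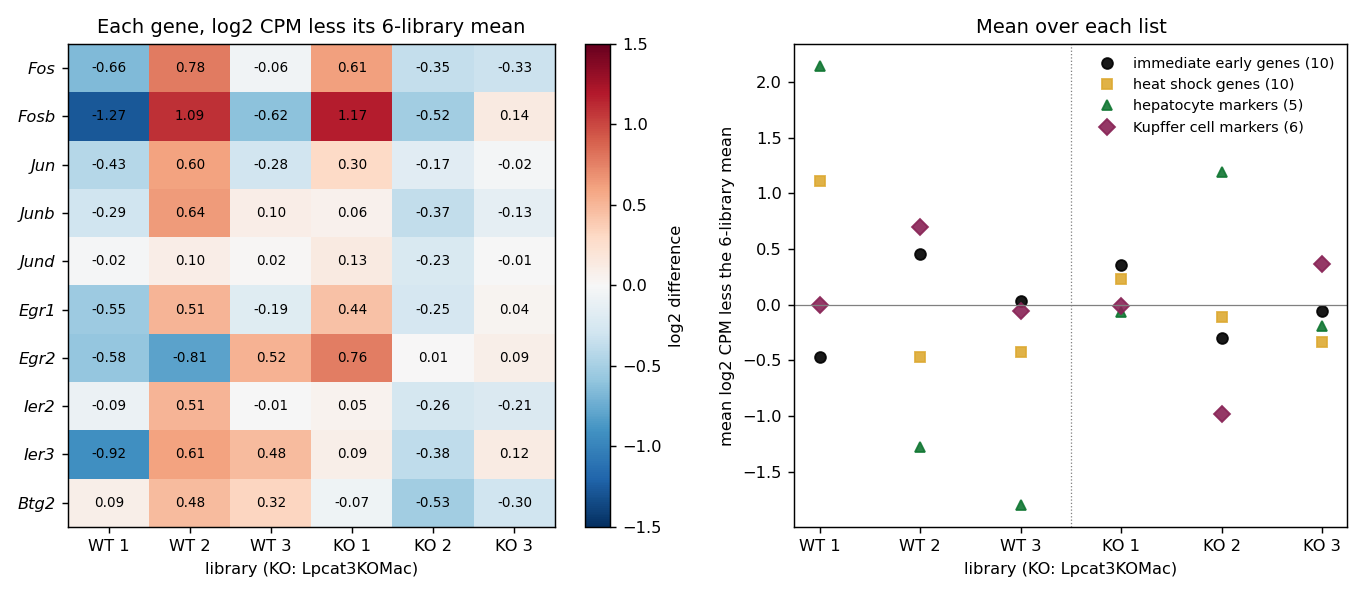
Left, log2 CPM of each immediate early gene less its mean over the 6 libraries, as colour and number, for WT and Lpcat3KOMac (KO) mice 1 to 3. Right, the same difference averaged over the 10 immediate early genes, 10 heat shock genes, 5 hepatocyte markers and 6 Kupffer cell markers: the immediate early genes are highest in WT mouse 2 (0.45) and Lpcat3KOMac mouse 1 (0.35) and lowest in WT mouse 1 (-0.47), where the hepatocyte markers (2.14) and heat shock genes (1.11) are highest.

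Among the 45 pairs of the 10 genes, Pearson's r of log2 CPM over the 6 libraries had a median of 0.68, given as a description since each pair shares the same libraries and scaling. A close group was formed by *Fos*, *Fosb*, *Jun* and *Egr1*, with r of 0.99 for *Fosb* and *Egr1*, 0.96 for *Jun* and *Egr1*, 0.95 for *Fosb* and *Jun*, 0.94 for *Fos* and *Egr1*, 0.92 for *Fos* and *Jun* and 0.91 for *Fos* and *Fosb*. *Junb* and *Ier2* also ran together (r = 0.95). The 4 pairs with r under 0 all contained *Egr2*, the lowest being *Egr2* with *Ier2* at -0.41, and *Egr1* with *Egr2* had 0.12. These values include WT mouse 2, where *Egr2* was at its lowest and 7 of the 10 genes at their highest. Against their 6-library means, *Egr1* and *Egr2* were both lower in WT mouse 1 and both higher in Lpcat3KOMac mice 1 and 3. In WT mouse 3 and Lpcat3KOMac mouse 2, *Egr1* was lower and *Egr2* higher. Correlations without WT mouse 2 were not computed. In all, 12 pairs were above 0.8.

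Between its highest and lowest library *Fosb* differed 5.47-fold, *Egr2* 2.98-fold, *Ier3* 2.89-fold and *Fos* 2.72-fold. *Egr1* (2.08-fold), *Jun* (2.05-fold), *Junb* (2.01-fold), *Btg2* (2.00-fold) and *Ier2* (1.70-fold) spread less, and *Jund* (1.29-fold) least. The median of the 10 was 2.06-fold, beside 1.63-fold over all genes tested and 1.39-fold over the 10521 of them with a mean of at least 5 CPM, where counting error is small. Among those 10521 genes, 92.2% had a smaller range than *Fosb*, 86.8% a smaller one than *Fos* and 72.0% a smaller one than *Ier2*, but only 34.2% a smaller one than *Jund*. Within a genotype, the ratio was larger among the WT than among the Lpcat3KOMac libraries for 8 of the 10 genes, *Btg2* and *Jund* being the exceptions, and this difference in spread was not tested. *Jund* was the 1 gene of the 10 with a range under the median of such genes.

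**Figure D4:**
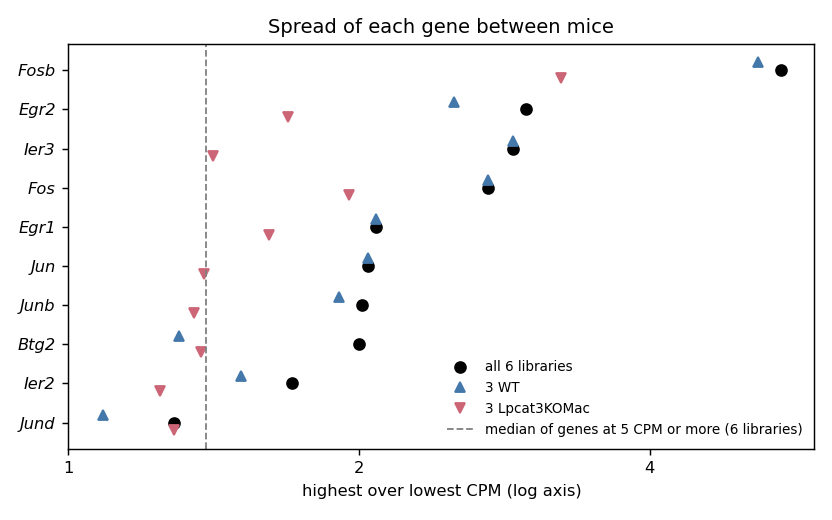
Ratio of the highest to the lowest CPM for each immediate early gene (log axis) over all 6 libraries (black), the 3 WT (blue) and the 3 Lpcat3KOMac libraries (red), with a dashed line at 1.39, the 6-library median of the 10521 tested genes with a mean of at least 5 CPM. *Jund* (1.29) lies under that line and *Fosb* (5.47) farthest above it, and the WT ratio exceeds the Lpcat3KOMac ratio for 8 of the 10 genes.

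Features of the libraries were set beside these levels. The hepatocyte score had r = -0.76 with the mean log2 CPM of the 10 genes (rho -0.71, exact permutation p = 0.0806 for r and 0.136 for rho, adjusted over 6 relations 0.242 and 0.35), and r = -0.85 without the 2 libraries farthest from its median. Those 2 were WT mice 1 and 3, not the hepatocyte-rich pair of WT mouse 1 and Lpcat3KOMac mouse 2. Outside that pair, the score less its 6-library mean was -1.28 and -1.80 in WT mice 2 and 3. In Lpcat3KOMac mice 1 and 3 it was -0.06 and -0.19. The mean log2 CPM of the 10 genes there was 6.15, 5.73, 6.05 and 5.64 in the same order. It did not fall steadily as the score rose. The rank correlation of a library's deviations with transcript length had r = 0.79 (rho 0.71, exact permutation p = 0.0667 and 0.136, adjusted 0.242 and 0.35), and r = 0.45 without the 2 farthest. The mean of 10 heat shock genes, which rise in stressed and dissociated cells, had r = -0.56 (rho -0.66, exact permutation p = 0.249 and 0.175, adjusted 0.373 and 0.35), and r = -0.87 without the 2 farthest. Kupffer cell markers gave 0.58 (rho 0.37, exact permutation p = 0.229 and 0.497), the mitochondrial share of counts 0.29 (rho 0.20, p = 0.536 and 0.714 by the same exact test) and endothelial markers -0.14 (rho -0.14, exact permutation p = 0.779 and 0.803). Without the 2 libraries farthest from the median of each measure, these last 3 relations came to -0.080, -0.20 and -0.84. Those of Kupffer cell markers and the mitochondrial share thus changed sign, whereas that of endothelial markers was stronger without those libraries. None of the 6 relations passed 0.05, and the part of these features in the levels was not tested. With an offset for transcript length the spread of the mean between libraries was 0.91, beside 0.92 without it.

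Levels of different genes can be compared once divided by transcript length. On this scale (CPM per kilobase of exon, mean of the 6 libraries) the order was *Junb* 76.9, *Jund* 70.6, *Fos* 54.7, *Jun* 50.4, *Ier2* 34.3, *Btg2* 28.5, *Egr1* 13.6, *Ier3* 11.1, *Egr2* 4.16 and *Fosb* 1.99. The first 4 were not separated from their neighbours, since *Junb* exceeded *Jund* in 3 of the 6 libraries, *Jund* exceeded *Fos* in 4, and *Fos* exceeded *Jun* in 3. *Jun* exceeded *Ier2*, *Btg2* exceeded *Egr1* and *Ier3* exceeded *Egr2* in each of the 6 libraries. The order of *Ier2* over *Btg2*, of *Egr1* over *Ier3* and of *Egr2* over *Fosb* held in 5 of 6.

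The 5 AP-1 genes did not keep fixed proportions between mice. Summed per length, the 5 FOS and JUN genes came to 200, 358 and 242 in WT mice and 297, 202 and 229 in Lpcat3KOMac mice. The share of *Fos* and *Fosb* in that sum was 16.5, 25.6 and 20.7% in WT mice and 27.6, 20.4 and 18.6% in Lpcat3KOMac mice, with the largest shares in the 2 libraries with the largest sums. *Jund* made up 34.8, 21.1 and 29.5% in WT mice and 26.0, 29.6 and 30.6% in Lpcat3KOMac mice, so its share was smallest where the sum was largest. As the *Jund* level was nearly steady, its share must fall as the sum rises, and the shares thus restate the levels. *Jun* kept to 16.6 to 21.5% and *Junb* to 26.2 to 33.2%. Per length, *Fos* exceeded *Jund* in WT mouse 2 (1.17-fold) and Lpcat3KOMac mouse 1 (1.01-fold) but not in the other 4 libraries (0.466-fold to 0.688-fold). *Fos* exceeded *Fosb* in every library, by 21-fold to 47.6-fold.

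**Figure D5:**
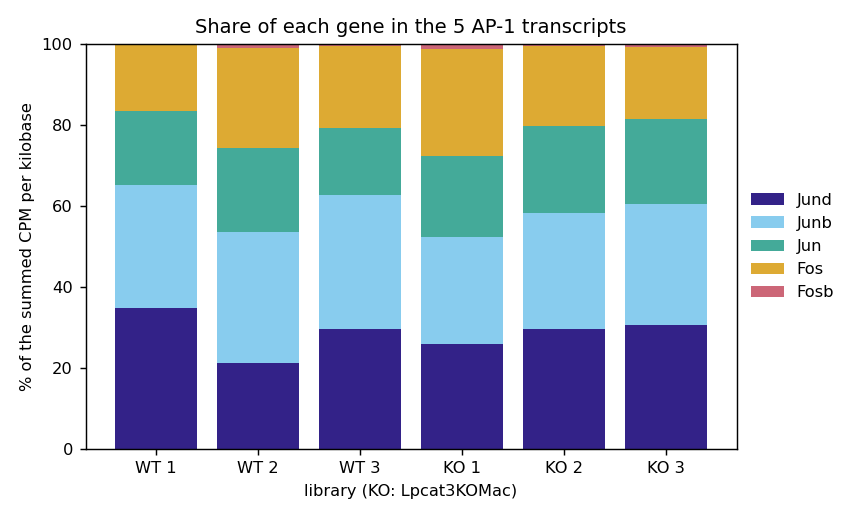
Share of each FOS and JUN gene in the summed length-scaled level of the 5 AP-1 genes, in percent, with 1 stacked bar for each WT and Lpcat3KOMac (KO) library. The FOS-type share is largest in Lpcat3KOMac mouse 1 (27.6%) and WT mouse 2 (25.6%), where the *Jund* share is at its lowest (26.0% and 21.1%).

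Other genes of the pathway were examined as lists, and in each of them edgeR's quasi-likelihood test called 0 genes at a Benjamini-Hochberg adjusted p under 0.05. Of 10 AP-1 partners and relatives, 3 were higher and 7 lower in Lpcat3KOMac mice (median log2 fold change -0.12), and 2 had an unadjusted p under 0.05. The first was *Fosl1*, which encodes a FOS-type subunit, at 0.400, 0.319 and 0.481 CPM in WT mice and 0.758, 0.656 and 0.765 CPM in Lpcat3KOMac mice (log2 fold change 0.86, SE 0.27, unadjusted p = 0.0208). Its Lpcat3KOMac values all lay above its WT values, beside 2.29% of all genes tested, though on 16 to 44 counts per library. *Atf3*, a stress-induced repressor, had 32.3, 45.3 and 53.8 CPM in WT and 75.6, 52.4 and 68.8 CPM in Lpcat3KOMac mice (log2 fold change 0.58, SE 0.23, unadjusted p = 0.0448), with an overlap between WT mouse 3 and Lpcat3KOMac mouse 2. *Jdp2*, which restrains AP-1, gave -0.60 (SE 0.33).

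Of 16 other immediate early transcription factors 15 were tested (*Egr4* was not), 5 being higher and 10 lower, with a median of -0.01. *Klf2*, a factor known to restrain inflammatory genes, was at 138, 186 and 160 CPM in WT mice and 126, 75.4 and 114 CPM in Lpcat3KOMac mice (log2 fold change -0.62, SE 0.22, unadjusted p = 0.0319). *Cebpd*, an acute-phase factor, was at 28.6, 38.9 and 34.8 CPM and at 27.1, 20.6 and 22.7 CPM in the same order (-0.54, SE 0.16, unadjusted p = 0.0159). Both were lower in every Lpcat3KOMac library than in every WT library, beside 5.2% of all genes tested. Both had their highest value in WT mouse 2 and their lowest in Lpcat3KOMac mouse 2. *Bhlhe40* gave 0.40 (SE 0.43).

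Feedback inhibitors end the early response by dephosphorylating kinases, degrading transcripts or blocking NF-κB. The list of them also held genes with other roles, such as *Gadd45g* and *Mcl1*. Of the 23 listed 7 were higher and 16 lower (median -0.09). Those with an unadjusted p under 0.05 were *Nfkbia*, *Gadd45g* and *Mcl1*, and each was below every WT library in every Lpcat3KOMac library. *Nfkbia*, which encodes the NF-κB inhibitor IκBα, was at 239, 290 and 264 CPM in WT mice and 208, 143 and 181 CPM in Lpcat3KOMac mice (-0.58, SE 0.16, unadjusted p = 0.0121). *Gadd45g*, a stress sensor, gave -0.34 (SE 0.11, unadjusted p = 0.0193) and *Mcl1*, a survival protein, -0.29 (SE 0.11, unadjusted p = 0.0346). *Dusp1*, a MAP kinase phosphatase, gave -0.60 (SE 0.25, unadjusted p = 0.0572) and *Dusp5*, a further phosphatase of the family, 1.06 (SE 0.63). Beside these counts, 2.64% of all genes tested had an unadjusted p under 0.05. Every Lpcat3KOMac library was below every WT library for 5.2% of them. The genes of a list vary together, so a list's count was not tested.

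Upstream kinases and cofactors of serum response factor relay the signal to these promoters. Of the 17 listed, 5 were higher and 12 lower, with a median of -0.03. *Elk3*, a partner of serum response factor, was the 1 gene with an unadjusted p under 0.05, at 29.7, 31.3 and 41 CPM in WT and 44.3, 46.6 and 43.0 CPM in Lpcat3KOMac mice (0.39, SE 0.14, unadjusted p = 0.0334). *Crem* gave -0.38 (SE 0.27) and *Mrtfa* -0.20 (SE 0.25). The median of this list turned to 0.016 without Lpcat3KOMac mouse 1 and to 0.0047 without Lpcat3KOMac mouse 2, and that of the other transcription factors to 0.065 without Lpcat3KOMac mouse 2.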

How the data were processed

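RNA of liver F4/80-positive cells was sequenced from 3 WT and 3 Lpcat3KOMac mice (poly-A selection). The authors deposited raw read counts per Ensembl gene (49315 genes, GRCm38), and the submitters' processing notes name Trimmomatic 0.36, STAR 2.5.2b, featureCounts and Subread 1.5.2. Read strand and multi-mapping settings are not given in the sources used here. Of the genes, 49056 were found in GENCODE M21, the source of symbols and lengths.

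The genotypes were compared on these counts by edgeR 4.0.16 (R 4.3.3, TMM scaling, minimum count 10, robust quasi-likelihood test, genotype as the only term) and adjusted by the Benjamini-Hochberg method over 16134 genes. An SE was obtained by dividing the size of the log2 fold change by √F. Log2 CPM used a prior count of 2. Exact permutation tests (two-sided) ran over 20 assignments of mice to genotypes and, for correlations, over the 720 orders of 6 libraries. Alternatives were DESeq2 size factors, total counts alone, other filters, DESeq2 1.42.0, voom of limma 3.58.1, no robust dispersion, a replicate block, a hepatocyte covariate, a length offset and leaving out each mouse. Leaving out both hepatocyte-rich libraries, the covariate with the length offset, and the lists without each mouse were chosen after seeing the data.

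Members and lists were chosen with earlier results of these data known. Named were the 10 members, from each pathway list the 3 largest absolute log2 fold changes and the genes with an unadjusted p under 0.05, and the 5 genes of at least 10 CPM that correlated best with the members' mean, of which 1 is not reported here. Marker lists served as checks. In simulated data with 200 genes changed 3-fold, edgeR recovered 74 and called 5 unchanged genes of 15865 tested. The simulation gave every gene the same dispersion, unlike the real genes, so these numbers need not hold for the data. The floor of detection was 3 counts in a library, and every member lay above it.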

Additional observations from a re-analysis of the deposited data

How the results depend on the processing

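EdgeR called 0 genes in the main analysis, and the 10 immediate early genes gave 0 calls under each alternative, whereas DESeq2 called 12 genes overall. *Junb*, *Egr2*, *Ier2* and *Btg2* kept their direction in all 18 alternatives, and *Btg2* (-0.69 to -0.47) had an unadjusted p under 0.05 in each. Leaving out each mouse moved *Junb* from -0.53 to -0.056, *Ier2* from -0.41 to -0.088 and *Egr2* from 0.26 to 1.02. *Jund* turned to 0.029 with total counts alone and with the length offset, 0.057 with the hepatocyte covariate and length offset, and 0.0024 without both hepatocyte-rich libraries, where *Jun* was -0.081. With the covariate *Fos* was 0.14 and *Ier3* 0.12, and with the covariate and length offset 0.20 and 0.25. Leaving out each mouse in turn moved *Fos* from -0.44 to 0.38, *Fosb* from -0.21 to 1.35, *Jun* from -0.18 to 0.40, *Jund* from -0.11 to 0.04, *Egr1* from -0.10 to 0.46 and *Ier3* from -0.59 to 0.018. The median log2 fold change of the 10 ran from -0.28 (without WT mouse 1) to 0.19 (covariate and length offset). The causes were not tested. Without WT mouse 1, *Junb*, *Ier3* and *Btg2* had an unadjusted p under 0.05. Same-numbered mice deviated with correlations of -0.30, -0.60 and 0.36, which gave no sign that the numbers pair the mice. So few values cannot exclude a pairing. With the replicate block 0 genes were called, the median was -0.06 and *Btg2* was -0.59 (unadjusted p = 0.0428).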

Other observations

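Heat shock genes, which encode chaperones induced by heat and by tissue dissociation, were lower in Lpcat3KOMac mice for 10 of 10 listed genes (median log2 fold change -0.26), beside 59.9% of all genes tested, with 0 called by edgeR's quasi-likelihood test and 0 at an unadjusted p under 0.05. WT mouse 1 had the highest level of each, and the direction rested on it: without that mouse 10 of 10 were higher in Lpcat3KOMac mice (median 0.34), and without both WT mouse 1 and Lpcat3KOMac mouse 2, 9 of 10 were (median 0.31). *Hspa1b*, an inducible HSP70 gene, was at 41.9, 4.43 and 4.24 CPM in WT mice 1, 2 and 3 and at 14.1, 5.17 and 5.14 CPM in Lpcat3KOMac mice 1, 2 and 3 (log2 fold change -1.05, SE 1.06). *Hsph1*, a co-chaperone of HSP70, was at 160, 48.5 and 47.2 CPM and at 77.3, 58.0 and 58.3 CPM in the same order (-0.40, SE 0.53). *Hspa1a*, the paralog of *Hspa1b*, was at 20.9, 7.73 and 5.73 CPM and at 16.9, 3.47 and 5.74 CPM (-0.40, SE 0.76), and reads of this near-identical pair cannot be assigned with certainty. The library with the most heat shock transcripts was thus the one with the lowest mean of the immediate early genes, and Lpcat3KOMac mouse 1, next highest for *Hspa1b*, *Hspa1a* and *Hsph1*, was among the highest for the immediate early genes.

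Outside the lists, 8972 genes had a mean of at least 10 CPM, and 2.54% of them had r above 0.9 with the mean log2 CPM of the 10 immediate early genes over the 6 libraries (median r 0.11). Among the 5 most alike were *Klf3* (r = 1.00, 148 to 160 CPM), *Ccdc93* (0.992, 53.3 to 66.9 CPM), *Plcl1* (0.991, 12.5 to 15.4 CPM) and *Vwa5a* (0.989, 124 to 157 CPM). These 4 followed the order of the libraries closely but over a narrower range than the immediate early genes. With so many genes compared over 6 libraries, such values are a description.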
